A study of Homo sapiens with 18 samples.

Results

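The genes described are 48 genes of DNA replication and nucleotide supply, chosen by name, out of 57500 genes in the count table, and all 48 were found and passed the filter on low counts that left 16994 genes for testing. They were followed by RNA-seq across 18 libraries of IMR90, a line of human lung fibroblasts, 3 libraries in each of 6 groups. Prol are proliferating cells, and Sen (IR) are cells made senescent by X-irradiation with 20 Gy and collected on day 12. The other 4 groups were irradiated in the same way and treated with CCCP, an uncoupler of mitochondria, for 48 h from day 1, in cells engineered so that CCCP leads to the clearance of their mitochondria. Of these, Sen (IR) + CCCP received nothing further, 1 group received 20 mM sodium acetate from day 3 (the acetate group), 1 was transfected with mitochondrial DNA on day 10 (the mtDNA group), and 1 received both (the combination). All CCCP groups therefore share irradiation and CCCP, and the engineered line limits them as a model. Whether Prol and Sen (IR) came from the same engineered cells or received a vehicle is not given by the labels. The methods name no mock transfection for the groups without mtDNA, so mtDNA and the transfection itself cannot be told apart. The figure legends of the study define n as independent experiments. The labels do not say whether the 3 libraries of a group came from separate cultures. The p-values measure the spread between these libraries.

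Replication begins with licensing, in which the origin recognition complex, CDC6 and CDT1 load the MCM2 to MCM7 helicase onto DNA in G1. Cyclin E with its kinase and the DBF4-dependent kinase then bring in CDC45 and the GINS complex, which turn the loaded ring into an active helicase, and polymerases, the PCNA clamp and its loader copy both strands while ribonucleotide reductase and thymidylate synthase supply deoxynucleotides. Most of these genes are classical targets of the E2F transcription factors, which the retinoblastoma protein holds back in cells that have left the cycle, and low expression of replication genes is a known mark of senescent fibroblasts.

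Between 24624886 and 46224280 reads were counted on genes in each library, and the 48 genes took between 0.0523% and 0.167% of them. The 13 protein-coding mtDNA genes, which test the CCCP labels, made up 2.62% ± 0.295 (SD, n = 3) of all reads counted in Prol libraries and 2.11% ± 0.468 in Sen (IR), against 0.122% ± 0.0116 in Sen (IR) + CCCP and 0.0505% to 0.132% as means of the other CCCP groups. All 9 fibroblast markers were detected in every library (8.88 to 6519 TPM), and their summed level was 15766 to 17800 TPM in Prol, 10050.1 to 12075 in Sen (IR), 5531 to 5721 in Sen (IR) + CCCP and 3783 to 5159 in the 3 groups given acetate, mtDNA or both. The 3 epithelial, 3 endothelial and 3 blood markers reached at most 4.76, 0.308 and 4.30 TPM, the highest being EPCAM, VWF and CD68, while KRT5, CDH5 and CD3E had a median of 0. The fibroblast level moves with the groups compared, and its part in the results was not tested. Replicate pairs that held Sen (IR) replicate 3 or combination replicate 2 differed by a chi-square of 22.1 to 28.2 per degree of freedom. The other 14 pairs differed by 2.77 to 7.69. For each comparison of the 48 genes that uses either of these libraries, a count or a median without it is given. Single genes, unless stated, and the lists of other genes are given with these libraries only.

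The promoters were read first, since the genes share a class of regulator. RefSeq promoters of GRCh38.p14, 250 bases before to 50 after the start, were matched for 42 of the 48 genes, all but CCNE2, GINS4, MCM4, MCM5, POLD3 and RPA2. An E2F sequence (TTTCCCGC, TTTGGCGC, TTTCGCGC or TTTGCCGC on either strand) was found in 21 of the 42, or 50%, against 580 of 11160 promoters of tested genes, or 5.20%, and 3.33% of all 27305 promoters in the table. Of the 28 matches, some of which overlap each other as in MCM2 and MCM6, 24 lay before the start and 20 from 60 bases before the start onward. The CCAAT box (CCAAT) was present in 54.8% of these promoters against 36.4% of those of tested genes, the GC box (GGGCGG) in 71.4% against 68.4%, and the CHR sequence of mitotic genes (TTTGAA or TTTAAA) in 9.52% against 16.4%. Among further genes of the pathway, the E2F sequence stood in 5 of 26 promoters of other replication genes, 3 of 11 of other G1/S regulators, 1 of 15 of other nucleotide supply genes and 1 of 9 of mitosis genes. The 80 bases before the start are shown for 8 genes that hold the sequence there and for 2 that do not, RRM2, which had the largest fall with acetate, and CCNE1, which did not follow the rest. Capitals mark the E2F sequence, 5′ to 3′ on the strand of the gene, and GCGGGAAA and GCGGCAAA are its forms read from the other strand.
E2F1 (chr20:33686386-33686465, minus strand): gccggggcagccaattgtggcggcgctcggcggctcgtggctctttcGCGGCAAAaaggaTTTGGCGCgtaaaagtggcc
E2F2 (chr1:23531234-23531313, minus strand): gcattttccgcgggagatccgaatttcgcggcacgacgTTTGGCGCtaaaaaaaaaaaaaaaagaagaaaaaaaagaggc
CDT1 (chr16:88803709-88803788, plus strand): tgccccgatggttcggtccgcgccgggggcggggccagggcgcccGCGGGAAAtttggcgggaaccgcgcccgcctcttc
GINS2 (chr16:85688955-85689034, minus strand): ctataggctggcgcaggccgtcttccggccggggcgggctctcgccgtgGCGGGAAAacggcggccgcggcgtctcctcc
RFC3 (chr13:33818069-33818148, plus strand): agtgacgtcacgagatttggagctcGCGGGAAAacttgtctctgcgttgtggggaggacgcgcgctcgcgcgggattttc
PCNA (chr20:5126623-5126702, minus strand): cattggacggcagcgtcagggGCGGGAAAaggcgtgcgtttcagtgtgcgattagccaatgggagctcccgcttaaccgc
TYMS (chr18:657573-657652, plus strand): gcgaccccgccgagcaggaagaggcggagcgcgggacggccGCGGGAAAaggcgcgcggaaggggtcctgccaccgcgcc
UHRF1 (chr19:4909421-4909500, plus strand): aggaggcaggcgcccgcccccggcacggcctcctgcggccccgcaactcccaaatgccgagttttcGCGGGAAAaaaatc
RRM2 (chr2:10122659-10122738, plus strand): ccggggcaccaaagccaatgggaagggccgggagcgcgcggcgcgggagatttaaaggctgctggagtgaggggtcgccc
CCNE1 (chr19:29811911-29811990, plus strand): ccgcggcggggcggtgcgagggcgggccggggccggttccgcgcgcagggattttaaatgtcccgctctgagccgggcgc

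The windows place the E2F sequence 14 to 59 bases before the start in these 8 genes, and E2F1, itself an E2F factor, carries 2 of them at 33 and 20 bases before its start. Genes with and without the sequence had medians, given with no test, of 0.95 and 0.90 on the log2 scale with CCCP against Sen (IR), and -1.58 and -1.55 with acetate against Sen (IR) + CCCP (21 genes each). RRM2 and CCNE1 hold TTTAAA in their windows, 30 and 28 bases before the start. The match says only that these letters stand in the window.

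The 48 genes formed 1 broad pattern over the 6 groups. Their summed level, in CPM, counts scaled to the library size by TMM, was 1004.8 ± 5.74 in Prol (SD, n = 3), 809 ± 46.6 in Sen (IR), 1475 ± 32.7 in Sen (IR) + CCCP, 537 ± 4.09 with acetate, 1412 ± 11.9 with mtDNA and 552 ± 43.8 with both. The senescent libraries thus stood below the proliferating ones, the CCCP and mtDNA libraries stood above both, and the acetate and combination libraries stood lowest. Sen (IR) + CCCP and the mtDNA group held the 2 highest means for 39 of the 48 genes, and the acetate group and the combination held the 2 lowest for 39. For 34 genes all 6 libraries of the former pair lay above the other 12, and for 33 genes all 6 libraries of the latter pair lay below the other 12. Such counts of separated or overlapping libraries, here and below, were made for the 48 genes only. No share over all tested genes stands beside them. Comparisons given next to each other share libraries: that of CCCP with Sen (IR) uses the Sen (IR) libraries of the irradiation comparison, and those of acetate and of mtDNA use the same CCCP libraries. In whole-cell RNA, fewer cells in S phase and less RNA of these genes per cell cannot be told apart.

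**Figure D1:**
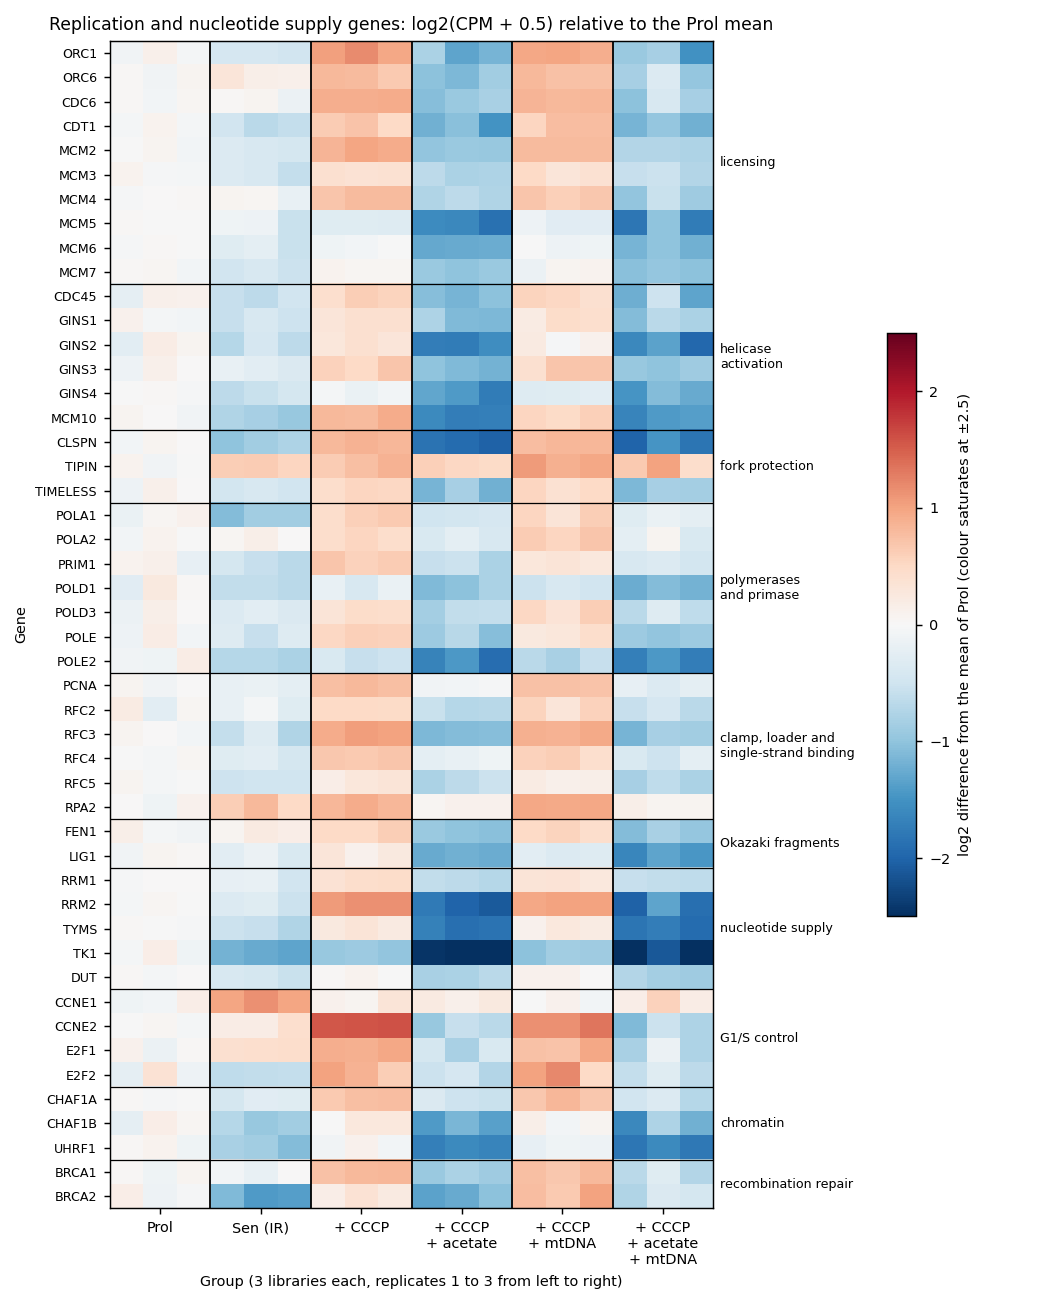
Each row is a gene, grouped by role, each column a library, and the colour is log2(CPM + 0.5) minus the mean of the 3 Prol libraries. The CCCP and mtDNA columns are red for most genes and the acetate and combination columns blue, while CCNE1, TIPIN and RPA2 are not blue with acetate.

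**Figure D2:**
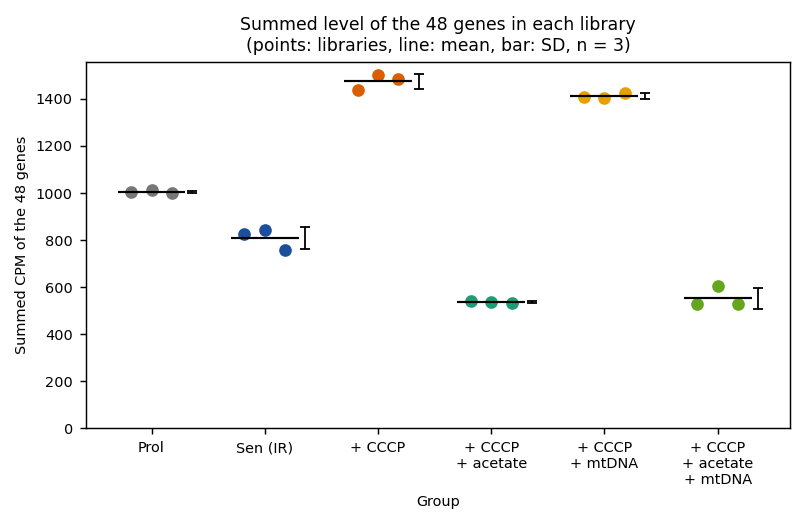
Points are the summed CPM of the 48 genes in each library, the line is the group mean and the bar the SD of 3 libraries. The CCCP and mtDNA libraries lie between 1402 and 1502, and the acetate and combination libraries between 527 and 603.

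Irradiated senescent cells carried less RNA of most replication genes than proliferating cells, while cyclin E1 went the other way. Of the 48 genes, 34 fell and 5 rose in Sen (IR) against Prol, by edgeR's quasi-likelihood test at a Benjamini-Hochberg adjusted p of 0.05 over 16994 genes, where 29.9% of all tested genes fell and 26.7% rose. The median change of the 48 was -0.43 on the log2 scale, against -0.011 over all tested genes. The falls were moderate, with 4 genes at least 2-fold lower. BRCA2, which acts in homologous recombination, fell the most (log2 fold change -1.38, SE 0.14, edgeR adjusted p = 2.10e-08), followed by E2F2, an activating E2F factor (log2 fold change -1.35, SE 0.38, edgeR adjusted p = 0.00476), and TK1, the salvage thymidine kinase (log2 fold change -1.32, SE 0.14, edgeR adjusted p = 3.72e-08). The 5 that rose were CCNE1 (log2 fold change 1.07, SE 0.11, edgeR adjusted p = 2.63e-08), RPA2, a subunit of the single-strand binding complex (0.65), TIPIN, a fork protection factor (0.63), E2F1 (0.45) and CCNE2 (0.29). The calls of E2F1 and CCNE2 were weak: E2F1 missed the threshold without Prol replicate 2 (edgeR adjusted p = 0.0605), and CCNE2 missed it without any 1 of the Prol libraries or of Sen (IR) replicates 2 and 3 (edgeR adjusted p 0.0569 to 0.187). Without replicate 3 of Sen (IR), which stands apart, 38 genes passed. For 36 genes all Sen (IR) libraries lay below all Prol libraries, for 6 they lay above, and for 6 the groups overlapped. No share over all tested genes stands beside these counts of separated libraries.

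After mitochondrial depletion the replication genes stood far higher than in the senescent cells that kept their mitochondria. With CCCP, 44 of the 48 rose against Sen (IR) and 1, CCNE1, fell, where 34.0% of tested genes rose and 31.3% fell, and the median change was 0.90 against 0.026 over all tested genes. For 17 genes the rise was at least 2-fold. E2F2 rose the most (log2 fold change 2.58, SE 0.34, edgeR adjusted p = 6.16e-07), then MCM10, a scaffold of the starting helicase (log2 fold change 1.81, SE 0.098, edgeR adjusted p = 4.97e-13), and CLSPN, the mediator of checkpoint signalling at the fork (log2 fold change 1.77, SE 0.09, edgeR adjusted p = 1.70e-13). E2F2 rested on 7 to 11 counts a library in Sen (IR) and 36 to 67 in Sen (IR) + CCCP. CCNE1 fell (log2 fold change -0.91, SE 0.11, edgeR adjusted p = 1.23e-07). MCM5 (-0.064), TIPIN (0.16) and POLE2 (0.31) did not pass, and the call of TK1 (log2 fold change 0.33, SE 0.14, edgeR adjusted p = 0.0498) missed the threshold in the DESeq2 test and without any 1 of the 6 libraries compared. In 46 genes all CCCP libraries lay above all Sen (IR) libraries, a count with no share over all tested genes. Without Sen (IR) replicate 3 the test called 44 genes and the median was 0.87. With total counts as library sizes in place of TMM the median of all tested genes moved to 0.29 and that of the 48 to 1.16.

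**Figure D3:**
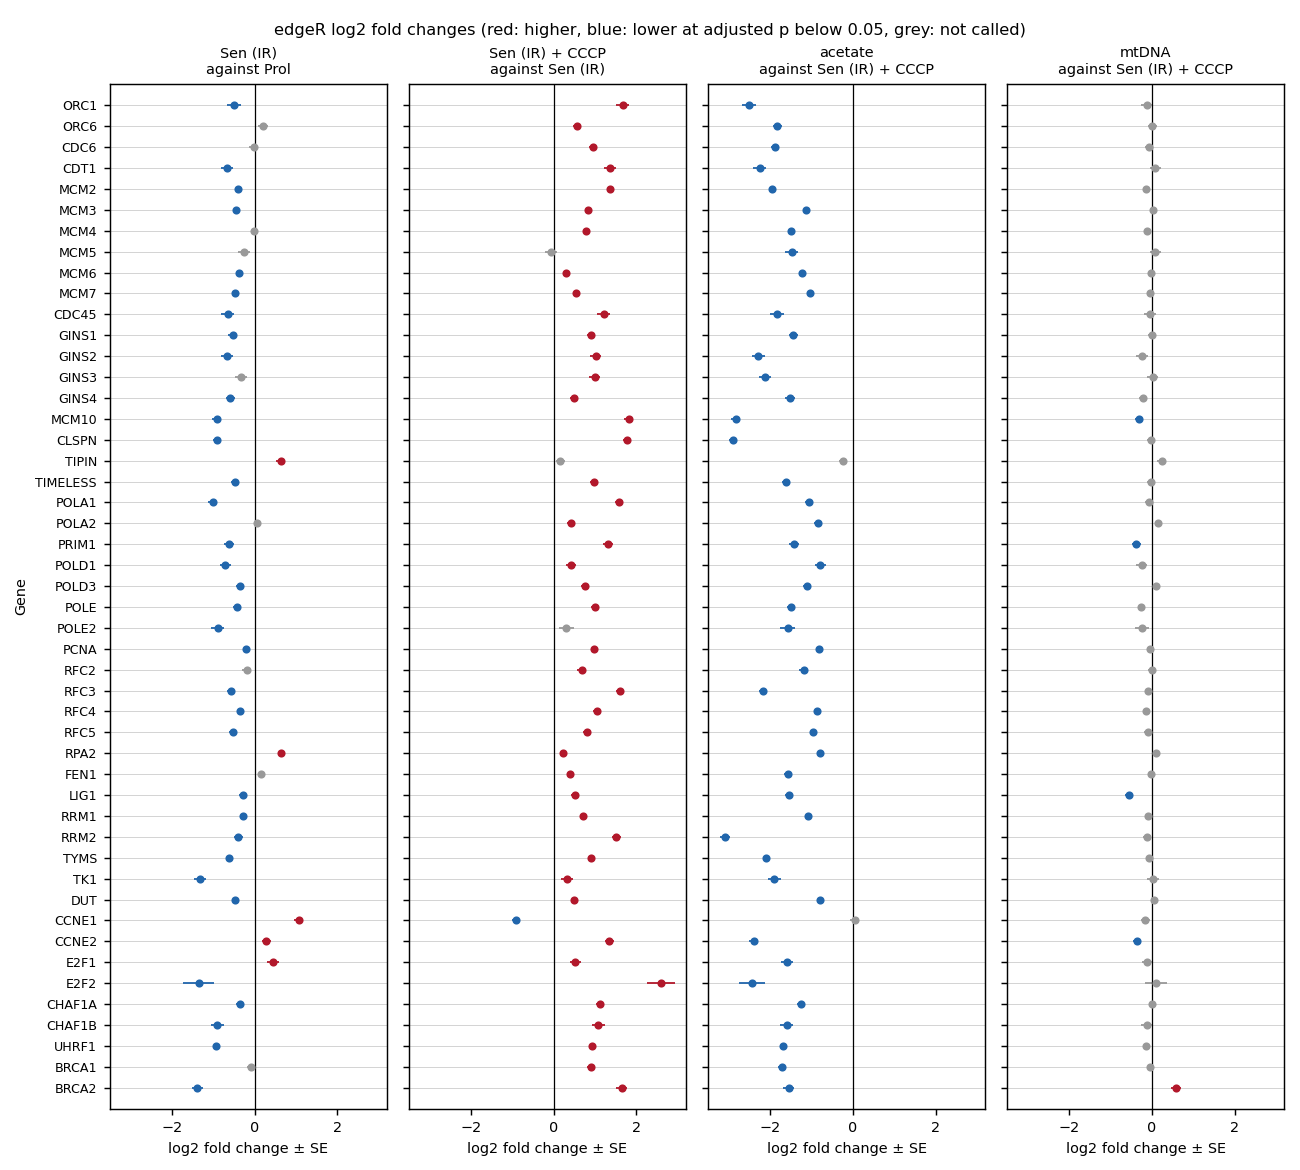
Points are edgeR log2 fold changes of the 48 genes, bars their SE, and colour marks a rise (red) or fall (blue) past an adjusted p of 0.05, in 4 comparisons. Most points lie left of 0 for irradiation, right of 0 with CCCP, far left with acetate and near 0 with mtDNA.

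Depleted senescent cells also exceeded proliferating cells for most of the genes. Against Prol, 36 of the 48 rose and 4 fell in Sen (IR) + CCCP, where 35.1% of tested genes rose and 34.1% fell, and the median change was 0.55. This comparison shares the CCCP libraries with the one before it and the Prol libraries with the one on irradiation. CCNE2 rose the most (log2 fold change 1.63, SE 0.11, edgeR adjusted p = 1.33e-11), with E2F2 (1.23) and ORC1, the largest subunit of the origin recognition complex (1.16). The 4 that fell were TK1 (log2 fold change -0.99, SE 0.13, edgeR adjusted p = 8.69e-07), POLE2 (-0.59), MCM5 (-0.32) and POLD1 (-0.29). The falls of MCM5 and POLD1 were the weakest of these 4, and DESeq2's Wald test did not make them. That of MCM5 was lost without any 1 of the 6 libraries (edgeR adjusted p 0.0772 to 0.0911). That of POLD1 was lost without Prol replicate 2 or 3 or CCCP replicate 2 (edgeR adjusted p 0.279, 0.096 and 0.175). With total counts as library sizes MCM5 and POLD1 stood at 0.037 and 0.068, neither past the threshold, and 44 genes rose and 1 fell. On that scale the changes of UHRF1, MCM6 and GINS4, which did not pass under TMM, were rises (0.35, 0.30 and 0.26). The median of all tested genes was 0.38 there. GINS2 and LIG1 were called higher (0.33 and 0.23) and also missed the threshold in DESeq2's Wald test. The call of GINS2 was lost without Prol replicate 1 or CCCP replicate 2 or 3 (edgeR adjusted p 0.2025, 0.1206 and 0.055). That of LIG1 was lost without Prol replicate 1 or CCCP replicate 1 or 3 (edgeR adjusted p 0.1198, 0.118 and 0.074). LIG1 also missed the threshold with no filter on low counts (edgeR adjusted p = 0.0778).

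With acetate the replication genes fell together and stood below senescent cells with mitochondria. Against Sen (IR) + CCCP, 46 of the 48 fell and 0 rose, where 28.3% of tested genes fell and 28.8% rose, by edgeR's quasi-likelihood test. At an unadjusted p of 0.05 the count was 47, where 10384 of the 16994 tested genes passed. By DESeq2's Wald test the count of members was 46. The median change was -1.55, against 0.005 over all tested genes, and 39 genes fell at least 2-fold. RRM2, the small subunit of ribonucleotide reductase, had the largest fall (log2 fold change -3.09, SE 0.12, edgeR adjusted p = 3.27e-15), followed by CLSPN (log2 fold change -2.91, SE 0.097, edgeR adjusted p = 6.00e-16) and MCM10 (log2 fold change -2.83, SE 0.11, edgeR adjusted p = 2.86e-15). Only CCNE1 (0.042) and TIPIN (-0.24) did not pass, and TIPIN passed when only the groups compared were fitted. All 3 acetate libraries lay below all 3 CCCP libraries for 47 genes, a count with no share over all tested genes to set it against. Each of the 6 fits that left out 1 of these libraries called 46.

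A comparison added after the values were seen set the acetate group against Sen (IR). There 39 of the 48 were lower and 2 higher, where 32.7% of tested genes were lower and 33.2% higher, with a median of -0.63 and 15 genes at least 2-fold lower. Without Sen (IR) replicate 3 the counts were again 39 and 2, and the median was -0.65. The 2 that were higher were POLA1, the catalytic subunit of the polymerase that starts each strand (log2 fold change 0.53, SE 0.10, edgeR adjusted p = 8.96e-05), and PCNA, the sliding clamp (log2 fold change 0.14, SE 0.048, edgeR adjusted p = 0.0123). TK1 (-1.57), RRM2 (-1.58) and MCM5 (-1.54) had some of the largest differences.

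With transfected mtDNA, few of the genes passed the test, and calls over all tested genes were also fewer than with acetate. In the mtDNA group against Sen (IR) + CCCP, 1 of the 48 rose and 4 fell, where 10.7% of tested genes rose and 7.40% fell, and the median was -0.059. BRCA2 rose (log2 fold change 0.59, SE 0.12, edgeR adjusted p = 0.00101). The 4 that fell were LIG1, the ligase that joins Okazaki fragments (log2 fold change -0.55, SE 0.088, edgeR adjusted p = 9.00e-05), PRIM1, the catalytic primase subunit (log2 fold change -0.38, SE 0.11, edgeR adjusted p = 0.0216), CCNE2 (-0.36) and MCM10 (-0.32). When 1 library was left out 2 to 5 genes passed, 2 without CCCP replicate 3 or mtDNA replicate 1 and 3 without mtDNA replicate 2, and the calls of PRIM1, CCNE2 and MCM10 were the ones lost in some of these fits (edgeR adjusted p up to 0.0997). By contrast 9 genes passed when only the groups compared were fitted or total counts were the library sizes. In 28 genes the 2 groups overlapped, 16 lay below and 4 above, counts with no share over all tested genes to set them against.

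The same held when mtDNA was added to acetate. In the combination against the acetate group 2 of the 48 rose and 1 fell, where 6.57% of tested genes rose and 6% fell, and the median was 0.12. BRCA2 rose (log2 fold change 0.73, SE 0.14, edgeR adjusted p = 0.00119), BRCA1, the ubiquitin ligase of homologous recombination, rose (log2 fold change 0.32, SE 0.10, edgeR adjusted p = 0.0404), and PCNA fell (log2 fold change -0.21, SE 0.049, edgeR adjusted p = 0.00668). Combination replicate 2 stood apart, with a summed level of the 48 genes of 603 CPM against 527 and 527 in the other two, and a share of mtDNA-encoded counts of 0.237% against a lowest of 0.0624%. Without it the median turned to -0.024 and BRCA1 no longer passed (0.17, edgeR adjusted p = 0.281), and the call of BRCA1 was also lost without any 1 of the acetate libraries (edgeR adjusted p 0.0543 to 0.123). Without combination replicate 3, 5 genes passed. With total counts as library sizes 1 gene rose and 3 fell. Of 48 genes, 39 overlapped between these groups, again with no share over all tested genes.

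The acetate effect had the same sign for every one of the 48 genes with and without mtDNA. In the combination against the mtDNA group, which shares no library with the acetate comparison, 47 of the 48 fell and 1 rose, where 29.9% of tested genes fell and 27.4% rose, with a median of -1.35. Without combination replicate 2, 47 genes passed, each lower, and the median was -1.48. RRM2 (log2 fold change -2.73, SE 0.12, edgeR adjusted p = 2.95e-14), CLSPN (-2.70) and E2F2 (-2.44) fell the most and CCNE1 rose (log2 fold change 0.32, SE 0.11, edgeR adjusted p = 0.0208), a call lost without mtDNA replicate 3 or combination replicate 2 and with total counts as library sizes. The call of TIPIN (-0.28) was lost in DESeq2's Wald test and without 1 of mtDNA replicates 1 and 3 or combination replicates 1 and 3. Across the 48 genes the log2 changes with acetate in the 2 settings had a Pearson correlation of 0.966 and a Spearman correlation of 0.960, with the same sign in 48 of 48. Over all 16994 tested genes the correlations were 0.843 and 0.842, with the same sign in 14584. These values are a description over genes that are not independent. The interaction of acetate and mtDNA tests the difference between the 2 acetate effects. It called 0 of the 48 in edgeR and 0 in DESeq2's Wald test. In edgeR 0.0765% of tested genes had a higher and 0.583% a lower interaction. An unadjusted p under 0.05 was found for 9 of the 48 and for 1938 of all 16994 tested genes. The median interaction of the 48 was 0.15, and 0.048 without combination replicate 2. RRM2 passed with no filter on low counts (0.36, edgeR adjusted p = 0.00882).

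**Figure D4:**
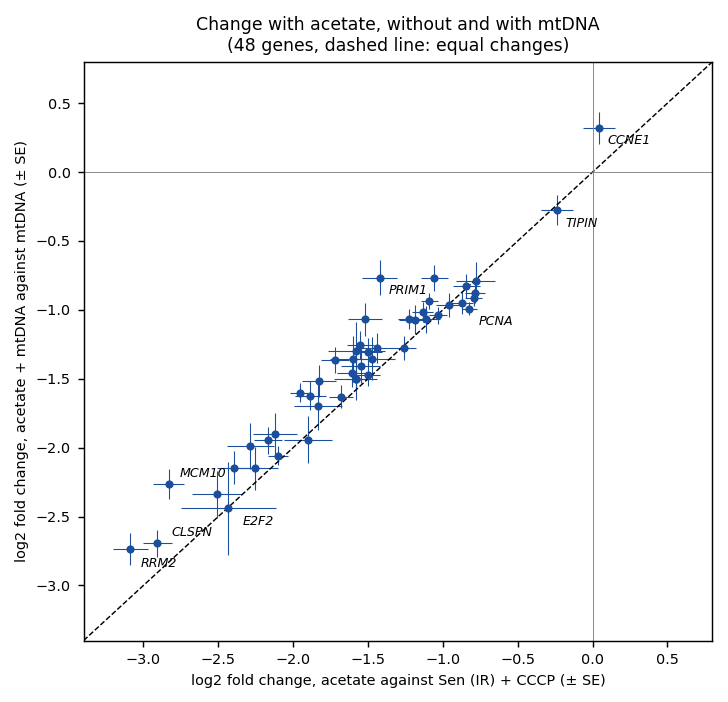
Each point is a gene, with the edgeR log2 fold change with acetate against Sen (IR) + CCCP on the horizontal axis, that with acetate + mtDNA against mtDNA on the vertical axis, and bars of 1 SE. The points follow the dashed line of equal changes from RRM2 at the lower left to CCNE1 at the upper right.

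Of the 10 licensing genes, all 10 fell with acetate, 9 of 10 rose with CCCP against Sen (IR), and 6 of 10 fell with irradiation. Of all tested genes 28.3% fell with acetate, 34.0% rose with CCCP and 29.9% fell with irradiation. MCM2, a subunit of the helicase ring (ENSG00000073111, chromosome 3, 127598410 to 127622436, plus strand), had 11.6, 12.2 and 11.1 CPM in the Prol libraries, 9.09, 8.71 and 8.47 in Sen (IR) and 21.5, 23.4 and 22.7 in Sen (IR) + CCCP. MCM2 libraries then held 5.67, 5.90 and 5.81 CPM with acetate, 20.4, 20.4 and 20.6 with mtDNA and 6.81, 6.84 and 6.58 with both, so that no CCCP or mtDNA library overlapped with any other group and the acetate and combination libraries lay below Sen (IR). CDC6 (ENSG00000094804, chromosome 17, 40287879 to 40304657, plus strand), which helps to load the ring, had 19.4, 18 and 19.5 CPM in the Prol libraries, 19.3, 19.9 and 17 in Sen (IR) and 36, 36.1 and 36.6 in Sen (IR) + CCCP. CDC6 did not differ between Sen (IR) and Prol beyond the test (log2 fold change -0.021, SE 0.10, edgeR adjusted p = 0.878) and rose with CCCP (log2 fold change 0.95, SE 0.098, edgeR adjusted p = 1.79e-08). CDC6 libraries held 8.85, 9.80 and 10.6 CPM with acetate, 34.7, 33.9 and 34 with mtDNA and 9.04, 14.3 and 10.4 with both, with combination replicate 2 above the other two. CDT1 (ENSG00000167513, chromosome 16, 88803789 to 88809258, plus strand), the other loading factor, had 3.40, 3.81 and 3.40 CPM in the Prol libraries, 2.39, 2.03 and 2.17 in Sen (IR) and 5.80, 6.11 and 5.23 in Sen (IR) + CCCP. CDT1 libraries held 1.24, 1.45 and 0.923 CPM with acetate, 5.35, 6.43 and 6.43 with mtDNA and 1.31, 1.56 and 1.26 with both, at the level of a few CPM. ORC1 had 3.40, 4.04 and 3.51 CPM in the Prol libraries, 2.61, 2.61 and 2.48 in Sen (IR) and 7.92, 8.91 and 7.58 in Sen (IR) + CCCP. ORC1 libraries held 1.90, 1.17 and 1.34 CPM with acetate, 7.55, 7.72 and 7.27 with mtDNA and 1.66, 1.84 and 0.945 with both, and those with CCCP alone all exceeded Prol. MCM5 was the exception among ring subunits, with 15.8, 15.4 and 15.3 CPM in the Prol libraries, 14.4, 14.1 and 10.4 in Sen (IR) and 12.6, 12.5 and 12.2 in Sen (IR) + CCCP. MCM5 libraries held 4.87, 4.76 and 3.90 CPM with acetate, 14.2, 12.7 and 12.7 with mtDNA and 4.09, 7.50 and 4.27 with both, so that the CCCP libraries fell within the range of Sen (IR), whose replicate 3 was lowest. ORC6, MCM3, MCM4, MCM6 and MCM7 changed with acetate by -1.83, -1.13, -1.50, -1.23 and -1.03 on the log2 scale.

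The genes of helicase activation and fork protection held 2 of the 3 largest falls with acetate. All 6 of the former fell with acetate and all 6 rose with CCCP against Sen (IR). Of all tested genes 28.3% fell with acetate and 34.0% rose with CCCP. CDC45 (ENSG00000093009, chromosome 22, 19479457 to 19520612, plus strand), which completes the active helicase, had 3.95, 5.22 and 5.12 CPM in the Prol libraries, 3.03, 2.84 and 3.27 in Sen (IR) and 6.52, 7.47 and 7.19 in Sen (IR) + CCCP. CDC45 libraries held 2.00, 1.85 and 2.08 CPM with acetate, 7.23, 6.97 and 6.43 with mtDNA and 1.74, 3.16 and 1.61 with both, and 1 combination library, replicate 2, lay within the range of Sen (IR). MCM10 had 7.20, 6.89 and 6.42 CPM in the Prol libraries, 3.87, 3.61 and 3.31 in Sen (IR) and 12.3, 12.2 and 13.5 in Sen (IR) + CCCP. MCM10 libraries held 1.94, 1.70 and 1.74 CPM with acetate, 10.2, 9.74 and 10.5 with mtDNA and 1.83, 2.25 and 2.31 with both, with the mtDNA libraries below the CCCP libraries, and this call against Sen (IR) + CCCP was lost without CCCP replicate 3 (edgeR adjusted p = 0.0775) or mtDNA replicate 1 or 2. The 4 GINS genes, which join CDC45 on the ring, fell with acetate by -1.44, -2.29, -2.12 and -1.52 for GINS1 to GINS4. CLSPN had 16.8, 18.4 and 17.7 CPM in the Prol libraries, 8.52, 9.48 and 10.2 in Sen (IR) and 31.5, 32.6 and 31.7 in Sen (IR) + CCCP. CLSPN libraries held 4.56, 4.30 and 3.99 CPM with acetate, 30.4, 31.7 and 31.6 with mtDNA and 4.03, 6.07 and 4.59 with both, a range in which the highest library is 32.6 and the lowest 3.99. TIMELESS, which binds TIPIN to stabilise the fork, followed CLSPN with 0.97 for CCCP and -1.61 for acetate. TIPIN had 7.12, 6.26 and 6.60 CPM in the Prol libraries, 10.5, 10.6 and 9.82 in Sen (IR) and 10.6, 11.5 and 12.6 in Sen (IR) + CCCP, and 10.3, 9.67 and 9.42 CPM with acetate, 14.4, 12.8 and 13.5 with mtDNA and 10.8, 13.8 and 9.17 with both. TIPIN stayed above Prol in all 15 irradiated libraries, and 21.1% of its exonic bases lie in another annotated gene.

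The genes of the copying enzymes had smaller median falls with acetate than the licensing genes. The 7 polymerase and primase genes had a median of -1.11 with acetate, the 6 clamp and loader genes -0.92 and the 10 licensing genes -1.66, which are descriptions with no test between roles. POLD1 (ENSG00000062822, chromosome 19, 50384204 to 50418018, plus strand), the catalytic subunit of polymerase delta, had 5.91, 8.74 and 7.48 CPM in the Prol libraries, 4.60, 4.57 and 4.41 in Sen (IR) and 6.36, 5.43 and 6.46 in Sen (IR) + CCCP. POLD1 libraries held 3.15, 3.33 and 4.01 CPM with acetate, 4.84, 5.39 and 5.07 with mtDNA and 2.78, 3.16 and 2.94 with both, and the Prol libraries spread from 5.91 to 8.74. POLE2, a subunit of polymerase epsilon, had 3.48, 3.44 and 4.29 CPM in the Prol libraries, 2.07, 2.07 and 1.93 in Sen (IR) and 2.73, 2.32 and 2.47 in Sen (IR) + CCCP. POLE2 libraries held 0.830, 1.06 and 0.630 CPM with acetate, 2.13, 1.90 and 2.33 with mtDNA and 0.790, 1.07 and 0.770 with both, and this gene stood highest in Prol. PRIM1 had 4.77, 4.89 and 3.79 CPM in the Prol libraries, 3.17, 2.84 and 2.62 in Sen (IR) and 7.55, 6.87 and 7.19 in Sen (IR) + CCCP. PRIM1 libraries held 2.83, 2.91 and 2.35 CPM with acetate, 5.53, 5.68 and 5.43 with mtDNA and 3.27, 3.40 and 3.12 with both, the mtDNA libraries lying between those of CCCP and of Prol. The remaining 4 genes, POLA1, POLA2, POLD3 and POLE, fell with acetate by -1.06, -0.84, -1.11 and -1.50.

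PCNA was the most abundant of the 48 genes per length in each group, with 202 TPM in Prol, 186 in Sen (IR), 490 in Sen (IR) + CCCP, 259 with acetate, 453 with mtDNA and 219 with both, as means of 3 libraries. PCNA (ENSG00000132646, chromosome 20, 5114953 to 5126626, minus strand) had 83.3, 74.2 and 79.7 CPM in the Prol libraries, 69.7, 70.4 and 66.4 in Sen (IR) and 133, 138 and 133 in Sen (IR) + CCCP on the CPM scale. PCNA libraries held 74.4, 75.8 and 77.8 CPM with acetate, 131, 131 and 129.7 with mtDNA and 68.6, 62.2 and 66.5 with both, so that those with acetate overlapped Prol and lay above Sen (IR), and those with both had the lowest mean and overlapped Sen (IR). RPA2 had 23.1, 21.2 and 24.9 CPM in the Prol libraries, 35.5, 40.9 and 32.8 in Sen (IR) and 41.3, 44.5 and 41.3 in Sen (IR) + CCCP. RPA2 libraries held 24, 24.8 and 25 CPM with acetate, 45.8, 44.9 and 45.3 with mtDNA and 25.4, 24.3 and 24.2 with both, with the acetate libraries near Prol. The 4 loader genes fell with acetate by -1.19, -2.17, -0.87 and -0.96 for RFC2 to RFC5. Of the 2 genes for Okazaki fragments, the flap nuclease FEN1 changed by -1.58 with acetate, and LIG1 had 11.3, 12.7 and 12.3 CPM in the Prol libraries, 9.95, 10.9 and 9.13 in Sen (IR) and 15, 13.2 and 14.5 in Sen (IR) + CCCP. LIG1 libraries held 4.74, 4.96 and 4.83 CPM with acetate, 10, 9.45 and 9.53 with mtDNA and 3.57, 4.59 and 4.10 with both, and those with mtDNA lay below all CCCP libraries.

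All 5 nucleotide supply genes fell with irradiation and with acetate and were called higher with CCCP against Sen (IR). The call of TK1 with CCCP was lost in DESeq2's Wald test and without any 1 of the 6 libraries. Of all tested genes 29.9% fell with irradiation, 28.3% fell with acetate and 34.0% rose with CCCP. Ribonucleotide reductase makes all 4 deoxynucleotides from ribonucleotides, RRM1 being its large and RRM2 its S-phase small subunit. RRM1 (ENSG00000167325, chromosome 11, 4094707 to 4138932, plus strand) had 98.4, 100.1 and 101 CPM in the Prol libraries, 86.8, 88 and 71.7 in Sen (IR) and 129, 135 and 137 in Sen (IR) + CCCP. RRM1 libraries held 64.7, 63.5 and 60.4 CPM with acetate, 125, 127 and 120.3 with mtDNA and 66.4, 64.8 and 63.9 with both, so that the large subunit changed less on the log2 scale than RRM2 with CCCP (0.70 against 1.51) and with acetate (-1.09 against -3.09). RRM2 (ENSG00000171848, chromosome 2, 10120698 to 10211725, plus strand) had 98.3, 104 and 101 CPM in the Prol libraries, 79.5, 82.2 and 69.5 in Sen (IR) and 211, 224 and 223 in Sen (IR) + CCCP. RRM2 libraries held 29.3, 25 and 23.3 CPM with acetate, 197, 203 and 205 with mtDNA and 24.5, 40.2 and 27.1 with both, and each of the acetate and combination libraries lay below each Sen (IR) library. TYMS (ENSG00000176890, chromosome 18, 657653 to 673578, plus strand), thymidylate synthase, had 60.9, 59.3 and 58.3 CPM in the Prol libraries, 40.8, 39.7 and 35.1 in Sen (IR) and 70.3, 75 and 69.2 in Sen (IR) + CCCP. TYMS libraries held 18.2, 15.9 and 16.2 CPM with acetate, 64.2, 71.2 and 69.1 with mtDNA and 16.3, 17.5 and 15.3 with both, though 47.9% of its exonic bases overlap ENOSF1 and TYMSOS on the opposite strand. The methods give strand-aware counting only for libraries that keep strand, without saying whether these do, so reads of these genes may not be separated. TK1 (ENSG00000167900, chromosome 17, 78174091 to 78187233, minus strand) had 15.9, 18.6 and 15.2 CPM in the Prol libraries, 6.97, 6.56 and 6.30 in Sen (IR) and 8.28, 8.56 and 8.09 in Sen (IR) + CCCP. TK1 libraries held 2.59, 2.20 and 1.99 CPM with acetate, 7.88, 8.87 and 8.69 with mtDNA and 1.63, 3.44 and 1.79 with both, and Prol stood highest, unlike RRM1, RRM2 and TYMS, whose means were highest with CCCP. DUT, the dUTPase that keeps uracil out of DNA, rose with CCCP (0.50), did not differ from Prol past the test (0.031) and fell with acetate (-0.79).

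**Figure D5:**
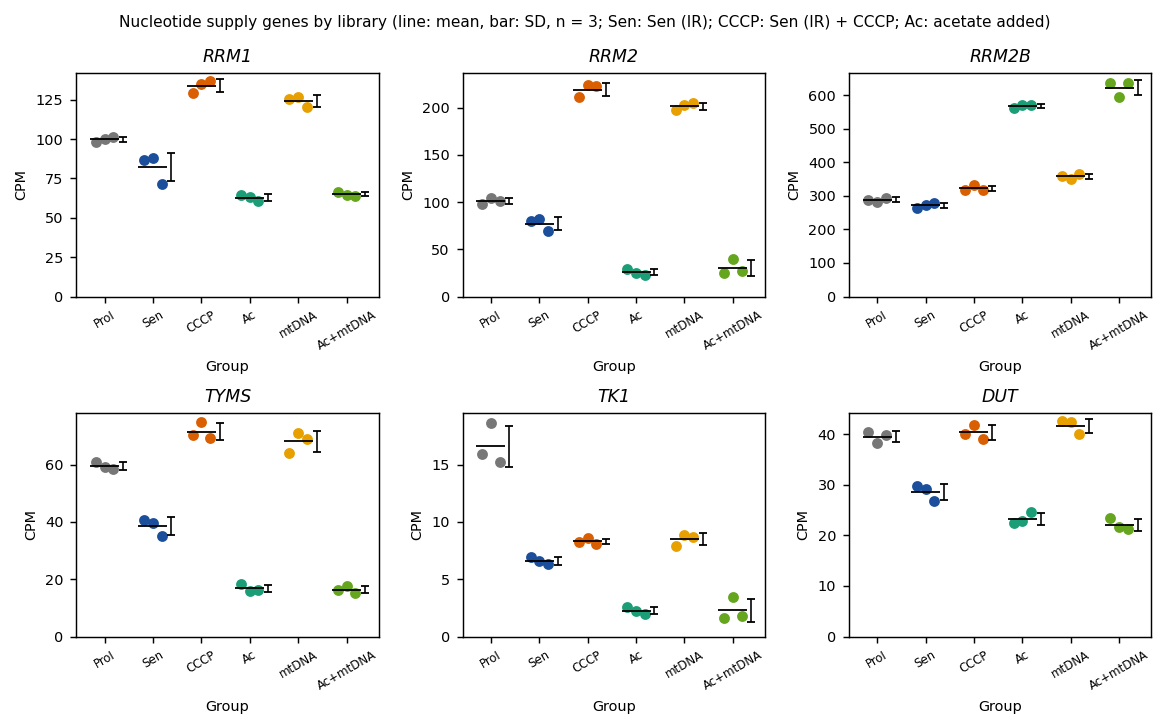
Points are CPM per library for 5 nucleotide supply genes and for RRM2B, with the mean as a line and the SD of 3 libraries as a bar, on axes that start at 0. RRM2 falls to 23.3 to 40.2 CPM with acetate while RRM2B rises to 562 or more.

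Of the 4 G1/S regulators among the members, 3 rose and 1 fell with irradiation, where 26.7% of tested genes rose and 29.9% fell. CCNE1 (ENSG00000105173, chromosome 19, 29811991 to 29824312, plus strand), cyclin E1, had 7.16, 7.33 and 8.68 CPM in the Prol libraries, 15.8, 17.6 and 15.6 in Sen (IR) and 8.36, 8.05 and 9.76 in Sen (IR) + CCCP. CCNE1 libraries held 9.13, 8.48 and 9.23 CPM with acetate, 7.59, 8.33 and 7.36 with mtDNA and 8.74, 11.8 and 8.79 with both, so that all Sen (IR) libraries stood above every other library, and the CCCP groups lay between 7.36 and 11.8 CPM, against 7.16 to 8.68 in Prol. CCNE2 (ENSG00000175305, chromosome 8, 94879770 to 94896678, minus strand), cyclin E2, had 7.47, 7.85 and 7.33 CPM in the Prol libraries, 8.66, 8.67 and 10.3 in Sen (IR) and 23, 23.4 and 23.7 in Sen (IR) + CCCP. CCNE2 libraries held 3.66, 4.89 and 4.55 CPM with acetate, 17.3, 17.2 and 19.9 with mtDNA and 3.24, 5.04 and 4.24 with both, and 37.1% of its exonic bases overlap INTS8 and 1 other gene. The changes of the 2 cyclins with CCCP were thus opposite (-0.91 and 1.34). E2F1 (ENSG00000101412, chromosome 20, 33675477 to 33686385, minus strand) had 5.79, 4.78 and 5.41 CPM in the Prol libraries, 7.14, 7.29 and 7.41 in Sen (IR) and 10.3, 10.3 and 10.8 in Sen (IR) + CCCP. E2F1 libraries held 3.77, 2.80 and 3.95 CPM with acetate, 9.11, 8.98 and 10.9 with mtDNA and 2.81, 4.75 and 2.91 with both, with the CCCP and mtDNA libraries highest. E2F2 had 0.508, 1.00 and 0.572 CPM in the Prol libraries, 0.258, 0.269 and 0.276 in Sen (IR) and 1.87, 1.64 and 1.31 in Sen (IR) + CCCP. E2F2 libraries held 0.311, 0.375 and 0.210 CPM with acetate, 1.84, 2.19 and 1.16 with mtDNA and 0.272, 0.451 and 0.245 with both, and it was the lowest of the 48 per length in every group.

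The 3 genes of chromatin behind the fork and the 2 of recombination repair rose with CCCP against Sen (IR) and fell with acetate. With irradiation 3 and 1 of them fell. Of all tested genes 34.0% rose with CCCP, 28.3% fell with acetate and 29.9% fell with irradiation. UHRF1 (ENSG00000276043, chromosome 19, 4903080 to 4962154, plus strand), which brings the maintenance methyltransferase to new DNA, had 36.2, 37.8 and 33.2 CPM in the Prol libraries, 20.2, 19.2 and 16.6 in Sen (IR) and 33.8, 38.4 and 34.1 in Sen (IR) + CCCP. UHRF1 libraries held 10.6, 11.5 and 11 CPM with acetate, 30.8, 33.2 and 32.6 with mtDNA and 9.83, 11.5 and 10 with both, with the CCCP libraries at 33.8 to 38.4 and Prol at 33.2 to 37.8. CHAF1A and CHAF1B, subunits of the histone chaperone at the fork, rose with CCCP by 1.11 and 1.07 and fell with acetate by -1.26 and -1.60. BRCA1 (ENSG00000012048, chromosome 17, 43044295 to 43170245, minus strand) had 14.2, 12.8 and 14.6 CPM in the Prol libraries, 13.1, 12.1 and 13.9 in Sen (IR) and 23.4, 24.6 and 25 in Sen (IR) + CCCP. BRCA1 libraries held 7.02, 7.82 and 7.22 CPM with acetate, 23.7, 22.3 and 24.7 with mtDNA and 8.47, 11.1 and 8.16 with both, with no difference between Sen (IR) and Prol past the test (log2 fold change -0.09, SE 0.093, edgeR adjusted p = 0.428). BRCA2 had 11.1, 9.03 and 9.62 CPM in the Prol libraries, 4.34, 3.38 and 3.51 in Sen (IR) and 11.1, 12.8 and 11.7 in Sen (IR) + CCCP. BRCA2 libraries held 3.59, 3.83 and 4.62 CPM with acetate, 17.2, 15.7 and 20.4 with mtDNA and 5.64, 7.62 and 7.11 with both, all 3 mtDNA libraries above all CCCP libraries and all 3 combination libraries above the acetate libraries.

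Other replication genes of the pathway, 33 in all, moved in the same directions for the most part. In Sen (IR) against Prol 20 fell and 5 rose, where 29.9% of tested genes fell and 26.7% rose. With CCCP against Sen (IR) 24 rose and 3 fell, where 34.0% rose and 31.3% fell. With acetate 28 fell and 2 rose, where 28.3% fell and 28.8% rose. In the same order the medians were -0.33, 0.48 and -0.76. ATAD5, the PCNA unloader, fell the most with irradiation (log2 fold change -1.17, SE 0.14, edgeR adjusted p = 2.35e-07), with TICRR, a helicase activator (-1.14), and RIF1, a timing factor (-0.83), and ORC5 (0.44), PRIM2 (0.35) and POLE3 (0.34) rose the most. DNA2, ATAD5 and WDHD1 led the rises with CCCP (1.42, 1.24 and 1.24), and POLD4, ORC3 and TOP1 were the 3 that fell (-0.60, -0.43 and -0.28). With acetate CHTF18, ASF1B and RECQL4 fell the most (-2.31, -2.13 and -1.64), and POLD4 (0.65) and ORC2 (0.16) rose.

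The other nucleotide supply genes moved in both directions. Of 18 genes, 8 fell and 4 rose with irradiation, where 29.9% of tested genes fell and 26.7% rose. With CCCP 10 rose and 3 fell, where 34.0% rose and 31.3% fell, and with acetate 10 fell and 3 rose, where 28.3% fell and 28.8% rose. RRM2B, the p53-induced small subunit of ribonucleotide reductase, rose with acetate where RRM2 fell, while with CCCP against Sen (IR) both rose. It had 289, 280.4 and 295 CPM in the Prol libraries, 263, 273 and 279 in Sen (IR) and 318, 332 and 318 in Sen (IR) + CCCP. RRM2B libraries held 562, 571 and 571 CPM with acetate, 359, 350.4 and 366 with mtDNA and 638, 596 and 636 with both, a rise with acetate (log2 fold change 0.82, SE 0.043, edgeR adjusted p = 5.60e-13). SAMHD1, which breaks down deoxynucleotides and is known as an interferon-inducible gene, had 103, 104 and 100.1 CPM in the Prol libraries, 128, 136 and 132 in Sen (IR) and 29.7, 31.9 and 32.8 in Sen (IR) + CCCP. SAMHD1 libraries held 39.7, 32 and 35.9 CPM with acetate, 224, 155 and 198 with mtDNA and 98.5, 212 and 106 with both, so that its level fell with CCCP (log2 fold change -2.07, SE 0.19, edgeR adjusted p = 3.34e-09) and rose with mtDNA, by 2.61 without and 1.95 with acetate. Combination replicate 2, at 212 CPM, stood above the other two, which still lay above all acetate libraries. Among the 48 genes and the lists of other genes, SAMHD1 had the largest change with mtDNA against Sen (IR) + CCCP. With irradiation SHMT1, GMPS and GART fell the most (-0.78, -0.56 and -0.35) and TK2, UMPS and CTPS1 rose the most (0.58, 0.43 and 0.39). With CCCP SHMT1, PAICS and DCK led the rises (0.82, 0.72 and 0.70), and CMPK1 and TK2 fell beside SAMHD1 (-0.44 and -0.33). With acetate CAD (-1.07) and SHMT1 (-0.99) were among those that fell, and GMPS and GART rose (0.20 and 0.14).

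Of 15 other G1/S regulators, 9 fell and 2 rose with irradiation, where 29.9% of tested genes fell and 26.7% rose, and 9 rose and 2 fell with CCCP, where 34.0% rose and 31.3% fell. With acetate 6 fell and 5 rose, where 28.3% fell and 28.8% rose. CDKN1A, which encodes the kinase inhibitor p21, had 690.0, 725 and 679.7 CPM in the Prol libraries, 982, 1041 and 950.0 in Sen (IR) and 1104, 1131 and 1066 in Sen (IR) + CCCP. CDKN1A libraries held 1895, 1774 and 1886 CPM with acetate, 1112, 1216 and 1123 with mtDNA and 1817, 1706 and 1751 with both, and rose with acetate (log2 fold change 0.75, SE 0.05, edgeR adjusted p = 2.81e-11), as did CDKN1B (0.92) and RBL2 (0.91), 2 further brakes on the cycle. E2F8, a repressor of E2F targets, had 1.99, 1.18 and 1.82 CPM in the Prol libraries, 1.13, 0.691 and 0.999 in Sen (IR) and 4.40, 5.83 and 5.59 in Sen (IR) + CCCP. E2F8 libraries held 0.346, 0.397 and 0.294 CPM with acetate, 3.80, 4.78 and 4.07 with mtDNA and 0.381, 0.574 and 0.455 with both, the steepest fall among all genes of these lists with acetate (log2 fold change -3.92, SE 0.23, edgeR adjusted p = 2.71e-12). E2F7, its relative, had 37.6, 38.8 and 39 CPM in the Prol libraries, 40.2, 43.1 and 46.7 in Sen (IR) and 64.6, 68.2 and 57.5 in Sen (IR) + CCCP. E2F7 libraries held 34.8, 40 and 34.5 CPM with acetate, 83.4, 92.9 and 96.8 with mtDNA and 43.7, 53.6 and 51.7 with both, with the mtDNA libraries above those of CCCP (log2 fold change 0.52, SE 0.078, edgeR adjusted p = 4.69e-05). CCNA2, cyclin A2 of S and G2 phase, had 28.2, 33.3 and 32.5 CPM in the Prol libraries, 20.6, 19.1 and 18.6 in Sen (IR) and 40.4, 45.7 and 43.2 in Sen (IR) + CCCP. CCNA2 libraries held 7.40, 8.86 and 7.11 CPM with acetate, 37.4, 37.7 and 36.8 with mtDNA and 5.12, 8.44 and 7.18 with both, and CCNA2 and E2F7 fell with acetate (-2.46 and -0.80). With irradiation E2F8, CDKN1B and CCNA2 fell the most (-0.80, -0.75 and -0.69) and CCND1 (0.57) and CDKN1A (0.50) rose. With CCCP E2F8, CCNA2 and E2F6 led the rises (2.45, 1.15 and 0.71), and RBL2 and CCND1 fell (-0.69 and -0.47).

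The 10 mitosis genes parted from the replication genes when depleted cells were set against proliferating ones. In Sen (IR) + CCCP against Prol 8 of the 10 fell and 1 rose, while 36 of the 48 replication genes rose and 4 fell, and the medians were -0.83 and 0.55. Of all tested genes 34.1% fell and 35.1% rose there. Their summed level was 408 ± 5.08 CPM in Prol (SD, n = 3), 191 ± 8.46 in Sen (IR), 273 ± 13.5 in Sen (IR) + CCCP, 56.6 ± 2.28 with acetate, 233 ± 6.90 with mtDNA and 60.5 ± 10.6 with both. MKI67, the proliferation marker Ki-67, had 58.8, 60.2 and 58.3 CPM in the Prol libraries, 13.8, 14.4 and 17.8 in Sen (IR) and 28.9, 32.4 and 30 in Sen (IR) + CCCP. MKI67 libraries held 2.73, 3.26 and 3.57 CPM with acetate, 23.2, 26.4 and 28.6 with mtDNA and 3.51, 6.23 and 4.66 with both, so that no senescent library reached a Prol library. With irradiation 9 of the 10 fell, MKI67, AURKB and TOP2A the most (-1.95, -1.87 and -1.64), and AURKA rose (0.42), where 29.9% of tested genes fell and 26.7% rose. With CCCP against Sen (IR) 5 rose, led by AURKB, CDK1 and MKI67 (1.53, 1.31 and 1.00), and CCNB1 fell (-0.93), where 34.0% rose and 31.3% fell. All 10 fell with acetate, CDC20 (-3.30), MKI67 (-3.23) and CDK1 (-2.81) the most, where 28.3% of tested genes fell.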

How the data were processed

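RNA-seq was read from 18 libraries, 3 in each of 6 groups assigned from the labels, and 0 columns were left without a sample. According to the methods, reads of 150 bases were trimmed with Trimmomatic 0.36, aligned to GRCh38 with STAR 2.5.2b, and uniquely mapped reads over exons were counted by gene with featureCounts (Subread 1.5.2). The authors deposited these counts without normalization and also deposited TPM, which correct for length and library size. The methods give strand-aware counting for strand-specific libraries without saying whether these were, and 7 of the 48 genes (TYMS, CCNE2, GINS4, TIPIN, DUT, GINS3 and RFC5) share over 10% of their exonic bases with another annotated gene, so their counts are less certain.

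From the deposited counts, edgeR 4.0.16 (R 4.3.3) fitted 1 quasi-likelihood model with 6 group means and TMM normalization to all libraries. The filter filterByExpr left 16994 genes, the common biological coefficient of variation was 0.0644, and calls were made at a Benjamini-Hochberg adjusted p of 0.05 over all genes tested. CPM use TMM-scaled library sizes. The interaction is the acetate effect with mtDNA minus that without it. TPM served for levels between genes and for markers. Promoters were RefSeq sequences, and gene coordinates are those of GENCODE on GRCh38. The procedure was tested on simulated counts.

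The members and lists were chosen with earlier results of these data known. All 48 members are named by role. Values in every library are given for 15 preset genes and for the 3 largest called rises and falls of each comparison, with every member called against the members' median, up to 3 rises and 3 falls per list of other genes, and 8 preset genes of those lists. In the comparison added later, acetate against Sen (IR), genes were picked after their values were seen. Alternatives were DESeq2 1.42.0 (size factors, Wald test and a nominal p with an absolute log2 fold change over 0.5), other filters, mtDNA genes left out, fits of the compared groups alone, a replicate block, each library left out, and total counts as library sizes, the last added after seeing the data. Some results that the naming rule covers are not reported here.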

Additional observations from a re-analysis of the deposited data

How the results depend on the processing

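Under the alternatives other than total counts as library sizes no called change of a member turned its sign, and the counts of called members in the comparisons of irradiation, CCCP and acetate stayed within 1.5 times except under the nominal rule of DESeq2, which called 23 in Sen (IR) against Prol, 2 with mtDNA, 1 in the combination against acetate and 2 in the interaction. When only the groups compared were fitted, the median in Sen (IR) against Prol was -0.39 and 9 members were called with mtDNA. With no filter on low counts 5 were called in the combination against acetate and 1 in the interaction. With total counts as library sizes, an alternative chosen after seeing the data, the median of all tested genes moved by 0.29 for CCCP against Sen (IR), 0.38 for CCCP against Prol, -0.12 and -0.13 for the 2 acetate effects and 0.14 for acetate against Sen (IR), and the members' medians were -0.33 for irradiation, 1.16 and 0.91 for CCCP against Sen (IR) and Prol, -1.67 and -1.46 for the 2 acetate effects, -0.13 for mtDNA and -0.49 for acetate against Sen (IR). On that scale 9 members were called with mtDNA, and MCM5 (0.037), MCM6 (0.30), GINS4 (0.26), POLD1 (0.068) and UHRF1 (0.35) turned from below to above 0 in CCCP against Prol. Leaving out 1 library gave members' medians of -0.47 to -0.39 for irradiation, 0.50 to 0.58 for CCCP against Prol, -1.54 to -1.48 and -1.48 to -1.27 for the 2 acetate effects, -0.024 to 0.20 for the combination against acetate, negative without combination replicate 2, and 0.048 to 0.20 for the interaction, lowest without the same library, with 2 to 5 members called for mtDNA and 2 to 5 for the combination against acetate. The labels number the replicates alike, but same-numbered libraries did not deviate together (correlations of -0.17 to 0.15), and with the replicate block 39, 45, 46 and 5 members were called for irradiation, CCCP against Sen (IR), acetate and mtDNA, and POLD1 was the 1 member whose call was lost (-0.28, edgeR adjusted p = 0.0516, in CCCP against Prol). The filter of at least 10 counts in every library tested 47 of the members. With 3 libraries a group, changes near the size of the spread between libraries are not resolved, and low genes such as E2F2 rest on few counts.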
